A study of Mus musculus with 16 samples.

Results

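The genes described here are 29 genes of cholesterol synthesis, its control and cholesterol traffic in the cell, picked by name from a table of 55404 mouse genes measured in whole brain. They comprise 8 enzymes of the mevalonate pathway, 11 enzymes from squalene to cholesterol, 5 regulators of the sterol response (SREBP pathway) and 5 genes of cholesterol transport, storage and removal. All 29 passed the filter on low values and were among the 23244 genes tested. RNA came from the whole brain of 8 Tecpr2 ki/ki mice, homozygous for the L1152fs knock-in of Tecpr2, and of 8 wt/wt mice. All 16 mice were untreated males of 5 months. The knock-in is a frameshift made in the germline, so every cell of the brain carried it, and it models a human neuropathy, HSAN9. TECPR2 is a protein of autophagy and of export from the endoplasmic reticulum (ER). The comparison asks which transcripts differ in the brain of mice with this allele.

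Brain cholesterol is made within the brain, since lipoproteins of the blood do not cross the blood-brain barrier, and most of it lies in myelin. Acetyl-CoA is built up to mevalonate and then to farnesyl diphosphate, of which pairs are joined to squalene, and squalene is closed to lanosterol and trimmed to cholesterol. The transcription factor SREBP2 drives most of these enzymes. SCAP carries SREBP2 from the ER to the Golgi when ER cholesterol is low, and INSIG proteins hold SCAP back when it is high. Cholesterol that reaches lysosomes leaves them through NPC2 and NPC1. In neurons, CYP46A1 converts cholesterol to 24-hydroxycholesterol, which can leave the brain.

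SREBP factors bind sterol regulatory elements, and NF-Y, which binds CCAAT, often acts beside them. RefSeq promoters (250 bases before to 50 bases after a transcript start, build GRCm38.p6) were matched to 24 of the 29 genes by symbol, all except Fdps, Fdft1, Sqle, Stard4 and Npc1. The 3 promoters below are shown because they are the ones that hold CACNCCAC, a short form of the SREBP site, and because Hmgcs1, Insig1 and Acat2 return in the results. Capitals mark CACNCCAC, CACGTG and CCAAT on either strand, so that a match on the other strand appears as the reverse complement (ATTGG for CCAAT).

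Hmgcs1 (chr13:119690101-119690400, strand +): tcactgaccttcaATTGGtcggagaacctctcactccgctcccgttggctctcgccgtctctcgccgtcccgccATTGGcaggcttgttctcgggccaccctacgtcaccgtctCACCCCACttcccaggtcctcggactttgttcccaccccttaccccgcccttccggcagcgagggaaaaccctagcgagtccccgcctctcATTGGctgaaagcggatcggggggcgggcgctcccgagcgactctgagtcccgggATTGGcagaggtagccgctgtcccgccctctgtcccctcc
Insig1 (chr5:28071162-28071461, strand +): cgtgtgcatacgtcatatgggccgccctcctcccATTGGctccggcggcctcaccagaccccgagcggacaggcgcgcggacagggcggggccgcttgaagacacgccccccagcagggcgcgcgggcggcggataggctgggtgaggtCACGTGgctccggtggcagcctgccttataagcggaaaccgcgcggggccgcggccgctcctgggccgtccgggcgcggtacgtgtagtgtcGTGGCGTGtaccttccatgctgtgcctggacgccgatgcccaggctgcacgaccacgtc
Acat2 (chr17:12960676-12960975, strand -): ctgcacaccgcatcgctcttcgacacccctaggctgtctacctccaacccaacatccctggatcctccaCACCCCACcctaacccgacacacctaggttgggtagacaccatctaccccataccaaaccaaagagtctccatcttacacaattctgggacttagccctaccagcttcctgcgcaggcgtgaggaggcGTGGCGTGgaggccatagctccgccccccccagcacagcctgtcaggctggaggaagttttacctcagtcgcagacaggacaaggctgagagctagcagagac

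In the Hmgcs1 window the match to CACNCCAC starts 136 bases before the transcript start, and CCAAT is found at 4 places. In the Insig1 window the match starts 9 bases before the start, with CACGTG at 101 and CCAAT at 216 bases before it. In the Acat2 window matches lie 181 and 53 bases before the start, and the window has no CCAAT. At Hmgcs1 and at the farther Acat2 position the match is CACCCCAC, which is part of the CACNCCAC matches and was found in the promoters of 2 of the 24 genes, against 3.30% of 27025 genes in the promoter table. CACNCCAC was found in 3 of the 24 genes (12.5%) and in 7.12% of all genes. CACGTG was found in 5 (20.8%), at Hsd17b7, Sc5d, Dhcr7, Insig1 and Scap, and in 8.09% of all genes. CCAAT was found in 22 of the 24 genes (91.7%), all except Acat2 and Scap, against 41.1% of all genes. A gene with several promoters was counted once if any held the letters, and 5 of the 24 genes have more than 1 promoter, Insig2 among them with CCAAT in 1 of its promoters. These are counts of letters in a window and no test was made.

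The libraries were made from total RNA after removal of ribosomal RNA. The deposited values are normalized, so that their totals lie between 11964284 and 12252324 per mouse, and the reads on genes behind them were estimated at 9.23 to 15.39 megareads. Tecpr2, the targeted gene, had values of 274 to 320 in Tecpr2 ki/ki and of 928 to 1002 in wt/wt mice, and fell by 1.68 on the log2 scale (exact two-sided permutation p = 0.000155, the smallest that 8 against 8 mice allow). Tissue markers were as labelled, with markers of neurons, astrocytes, oligodendrocytes and microglia detected in both genotypes. The labels do not say whether mice with the same replicate number share a litter.

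The level of the genes was compared per kb of annotated exon, as the mean of all 16 mice. Hmgcs1, which makes HMG-CoA in the cytosol, had the highest level at 430.2 ± 16 (SD, n = 16) normalized reads per kb. Srebf2, which encodes SREBP2, followed with 374.0 ± 14.4, Cyp46a1 with 324.3 ± 9.19 and Insig1 with 241.6 ± 16.2. The lowest levels per kb were those of Lss at 36.8 ± 1.69 and Tm7sf2 at 29.1 ± 2.19. Lss closes the sterol ring system and Tm7sf2 encodes a sterol reductase. The spread over genes was thus much wider than that over mice, as the plot of levels shows. Of the 28 pairs of neighbours in the order, the ranges over mice overlapped in 24. They did not overlap between Hmgcs1 and Srebf2, between Cyp46a1 and Insig1, between Insig1 and Acat2, and between Lss and Tm7sf2. Compared within each mouse, in 8 of the 28 pairs the gene with the higher mean was the higher one in all 16 mice, among them Acat2 at 182.9 over Sc5d, and Mvk at 47.6 over Lss, while in the other pairs it was the higher one in 9 to 15 mice. The exon length pools all annotated transcripts, so genes with long minor transcripts, such as Lss with 10787 bases, read low on this scale.

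**Figure D1:**
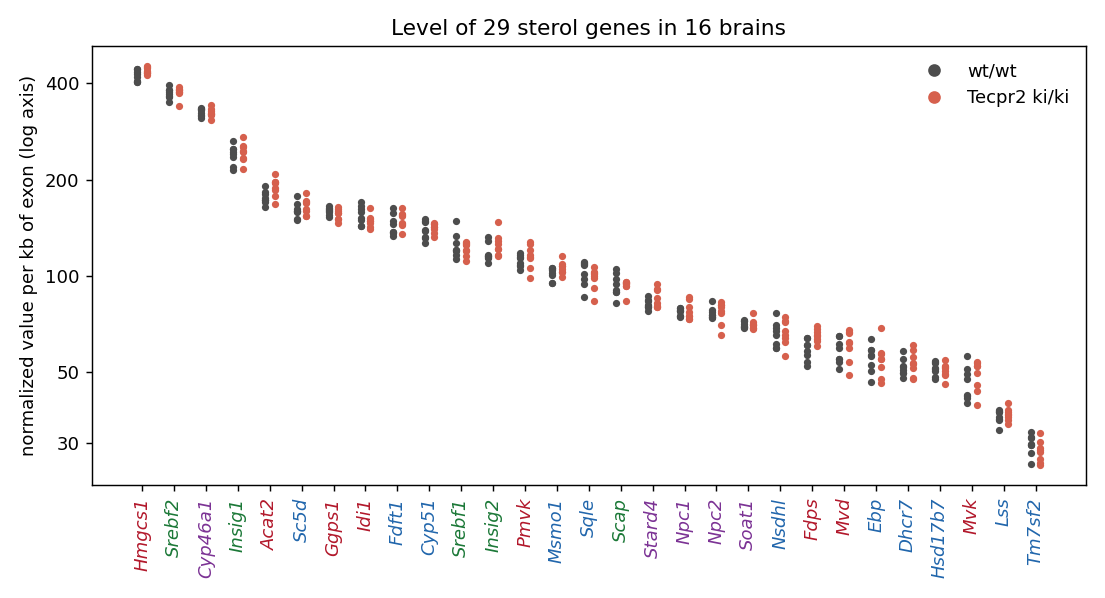
Normalized value per kb of exon (log axis) for each of the 29 genes, 1 point per mouse, wt/wt in grey and Tecpr2 ki/ki in red, with genes ordered by their mean and names coloured by role (mevalonate red, squalene and sterol blue, SREBP regulation green, trafficking purple). Levels run from 430.2 for Hmgcs1 to 29.1 for Tm7sf2, and the 2 genotypes overlap in every gene.

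None of the 29 genes passed an adjusted p of 0.1 between the genotypes, where 31 of the 23244 genes tested did (0.133%, and 0.0946% with the higher mean in Tecpr2 ki/ki). The smallest adjusted p among the 29 was 0.531, that of Fdps (limma with Benjamini-Hochberg adjustment over all genes tested). At an unadjusted p under 0.01 stood 1 of the 29, Fdps, against 1.56% of all genes. At an unadjusted p under 0.05 stood 4, against 6.08% of all genes tested. These were Fdps, Acat2, Hmgcs1 and Insig2, and all 4 had the higher mean in Tecpr2 ki/ki mice, as 3.07% of all genes did at that threshold (3.01% had the lower mean). In none of the 29 were the values of the genotypes without overlap (0.086% of all genes).

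Log2 fold changes of the 29 genes, on the scale of log2(value + 1), ran from -0.070 for Tm7sf2 to 0.15 for Fdps. Their median was 0.018, beside -0.00098 for all genes tested. The estimate was above 0 for 20 of the 29 (69%), beside 49.5% of all genes. The genes vary together between mice, as described further on, so these signs are not independent of each other. The precision was high enough to bound the differences. All 29 of the 95% intervals lay within 0.3 of 0 on the log2 scale, that is between 18.8% lower and 23.1% higher. Of the 29 intervals, 20 lay within 0.15 of 0 (9.87% lower to 10.96% higher) and 7 within 0.1. The narrowest interval was that of Srebf2, reaching 0.047 to each side of its estimate, and the widest that of Mvd, reaching 0.16.

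**Figure D2:**
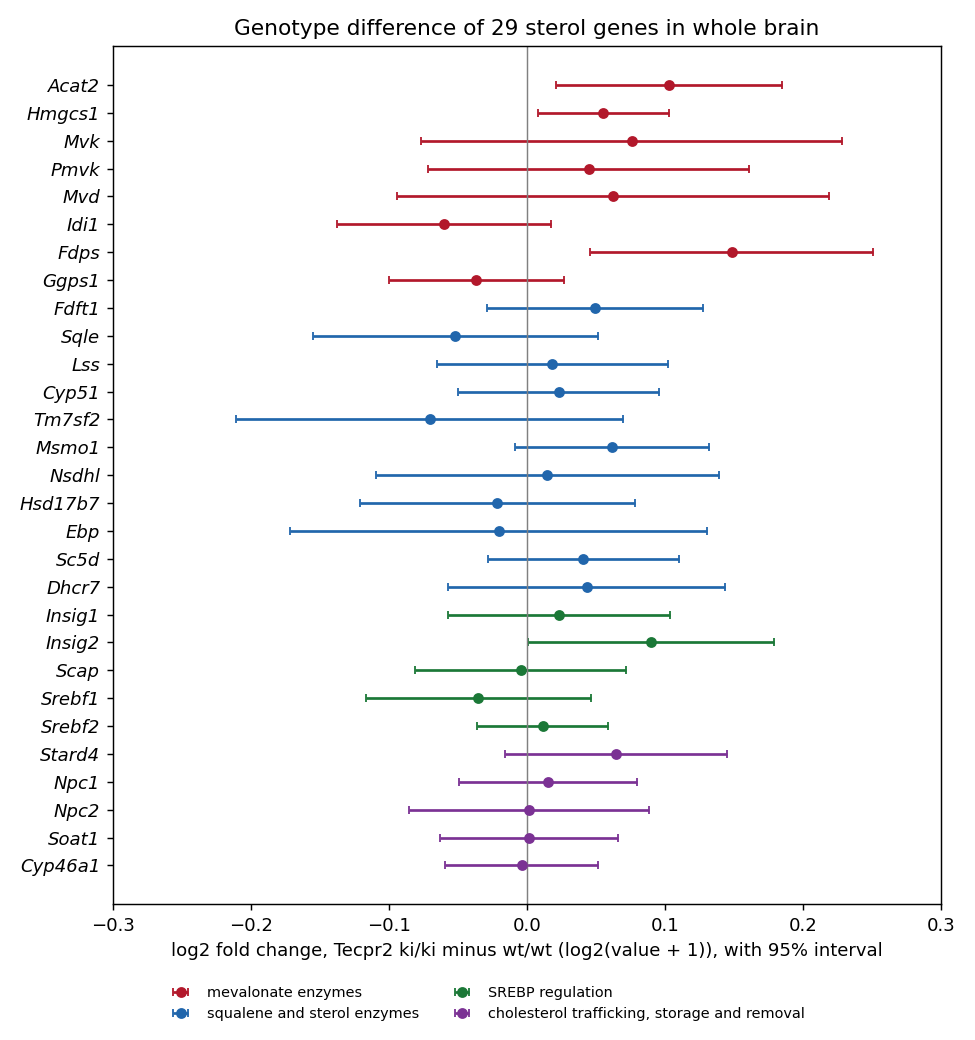
Log2 fold change between Tecpr2 ki/ki and wt/wt mice (points) with its 95% interval from limma (bars), for the 29 genes grouped and coloured by role. The intervals of Acat2, Hmgcs1, Fdps and Insig2 lie to the right of 0, the other 25 include 0, and none reaches 0.3 on either side.

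Among the 8 mevalonate enzymes, 6 had the higher mean in Tecpr2 ki/ki and 2 the lower, with a median log2 fold change of 0.059, and 3 stood at an unadjusted p under 0.05. Fdps makes farnesyl diphosphate, from which sterols and the isoprenoid anchors of proteins both derive. Its values were 254, 274.5 and 293 in Tecpr2 ki/ki mice (lowest, median and highest) and 220, 251 and 270 in wt/wt mice. All 8 Tecpr2 ki/ki mice lay above the wt/wt median and 5 lay above every wt/wt mouse. The means were 274.5 ± 13.0 and 248.0 ± 18.9 (SD, n = 8 each). The log2 fold change of Fdps was 0.15 (95% interval 0.045 to 0.25, limma p = 0.0054, adjusted p = 0.531, exact permutation p = 0.0056). On the linear scale this is 10.8% higher.

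Acat2 encodes the cytosolic thiolase that makes acetoacetyl-CoA, the first step of the pathway. Its values were 427, 487.5 and 529 in Tecpr2 ki/ki mice and 418, 443.5 and 487 in wt/wt mice. Among mice with the allele, 4 lay above every wt/wt mouse, and replicate 8 lay below the wt/wt median. Acat2 thus had a log2 fold change of 0.10 (95% interval 0.021 to 0.19, limma p = 0.0144, adjusted p = 0.678, exact permutation p = 0.0292). Hmgcs1 had values of 1954, 2003.5 and 2082 in Tecpr2 ki/ki and of 1852, 1939.5 and 2040 in wt/wt mice. All 8 Tecpr2 ki/ki mice lay above the wt/wt median, and 3 above every wt/wt mouse. Its log2 fold change was 0.055 (95% interval 0.0079 to 0.10, limma p = 0.0228, adjusted p = 0.757, exact permutation p = 0.0387). In 5 of 25 alternative settings, 4 of them leaving out 1 mouse (replicate 5 of Tecpr2 ki/ki or replicate 1, 2 or 7 of wt/wt), the unadjusted p of Hmgcs1 was at or over 0.05, up to 0.0786. Those of Fdps and Acat2 stayed under 0.05 in all 25.

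The values of Fdps and Acat2 are uncertain as those of single genes. Of all 31-base words in the annotated transcripts of Acat2, 43.7% also occur in Acat3, a close copy, and 24.6% of those of Fdps occur in Gm43738, whose exons on the same strand cover 26.7% of the exon bases of Fdps. No gene under the symbol Gm43738 was found among the deposited values, so reads shared with it could not be looked at. Acat3 itself had values of 74 to 112 in Tecpr2 ki/ki and of 78 to 101 in wt/wt, with a log2 fold change of 0.083 (adjusted p = 0.931). The share in Hmgcs1 was 1.54% and spread over many genes, while 12.1% of its exon bases face Gm48342 on the other strand. Gm48342 was low, with values of 10 to 28 over all mice.

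The other mevalonate enzymes did not stand at an unadjusted p under 0.05. The kinases Mvk and Pmvk and the decarboxylase Mvd, which turn mevalonate into isopentenyl diphosphate, had log2 fold changes of 0.076, 0.045 and 0.062 at means between 108.2 and 197.6. Idi1, the isomerase of that product, was at 522.2 ± 23.9 in Tecpr2 ki/ki and 545.1 ± 35.4 in wt/wt mice (SD, n = 8 each), with a log2 fold change of -0.060 (95% interval -0.14 to 0.017). Ggps1 uses farnesyl diphosphate for protein anchors and had a log2 fold change of -0.037 (95% interval -0.10 to 0.027). Fdps and Idi1, consecutive steps, thus had estimates on opposite sides of 0. Of the words of Idi1, 18.4% also occur in Gm13502.

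**Figure D3:**
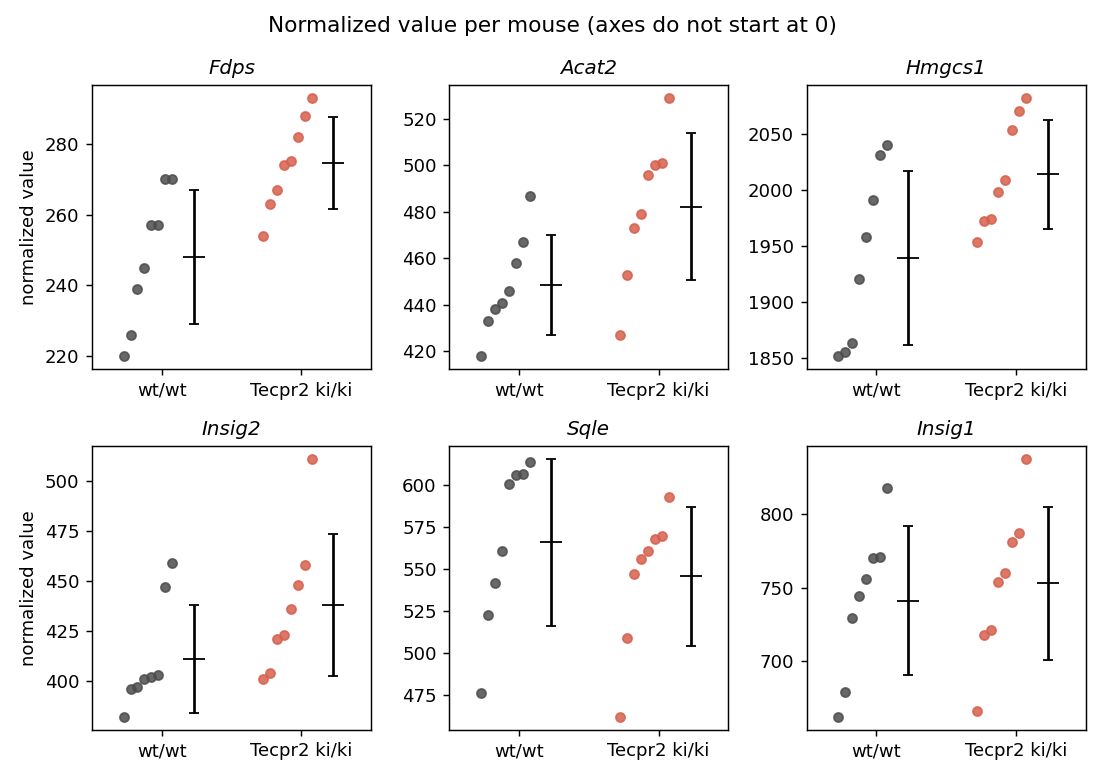
Normalized values of 6 genes in each mouse, wt/wt in grey and Tecpr2 ki/ki in red, sorted within each genotype, with the mean and SD (black bars) of 8 mice beside them, on axes that do not start at 0. Fdps, Acat2, Hmgcs1 and Insig2 are the 4 genes at an unadjusted p under 0.05, while Sqle and Insig1 overlap throughout.

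None of the 11 enzymes from squalene onward stood at an unadjusted p under 0.05. Of these, 7 had the higher mean in Tecpr2 ki/ki and 4 the lower, with a median log2 fold change of 0.018. Sqle, squalene epoxidase, is a slow step of the pathway and a classical SREBP2 target. Its values were 462, 558.5 and 593 in Tecpr2 ki/ki and 476, 581 and 614 in wt/wt mice. The ranges overlapped almost fully, and the log2 fold change was -0.052 (95% interval -0.16 to 0.051). Fdft1, which joins farnesyl diphosphate to squalene, had a log2 fold change of 0.049 (95% interval -0.029 to 0.13). Of the exon bases of Fdft1, 18.3% face the abundant gene Ctsb on the other strand, and 14.3% of its words occur in Gm6781.

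Lss had a log2 fold change of 0.018 and Cyp51, the lanosterol demethylase, one of 0.023. Msmo1 removes methyl groups from the sterol and had values of 609, 652 and 712 in Tecpr2 ki/ki and of 584, 636 and 651 in wt/wt. The log2 fold change of 0.062 (95% interval -0.0088 to 0.13, adjusted p = 0.877) was the largest among the 11. Nsdhl and Hsd17b7 work in the same demethylation and stood at 0.015 and -0.022. Ebp, Sc5d and Dhcr7 complete the double bonds of cholesterol and stood at -0.021, 0.041 and 0.043. Tm7sf2 had the lowest estimate, -0.070 (95% interval -0.21 to 0.070), at means of 124.9 and 131.1. It shares 12.1% of its exon bases with Vps51 on the same strand.

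Among the 5 regulators, Insig2 alone stood at an unadjusted p under 0.05. Its values were 401, 429.5 and 511 in Tecpr2 ki/ki and 382, 401.5 and 459 in wt/wt mice. Replicate 8 of Tecpr2 ki/ki held the highest value, and 7 of 8 Tecpr2 ki/ki mice lay above the wt/wt median. Insig2 had a log2 fold change of 0.090 (95% interval 0.00079 to 0.18, limma p = 0.0481, adjusted p = 0.820), and the exact permutation p was 0.0993. Without replicate 8 of Tecpr2 ki/ki the log2 fold change was 0.057 (adjusted p = 0.922), and the unadjusted p lay under 0.05 in 12 of 25 alternative settings. Insig1, a SREBP target that closes the feedback loop, had values of 666, 757 and 838 in Tecpr2 ki/ki and of 662, 750 and 818 in wt/wt. The log2 fold change was 0.023 (95% interval -0.057 to 0.10).

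Srebf2 had values of 2446, 2720 and 2806 in Tecpr2 ki/ki and of 2511, 2680 and 2841 in wt/wt, with a log2 fold change of 0.011 (95% interval -0.036 to 0.058). On the linear scale that interval runs from -2.46% to 4.14%. Srebf1, the gene of SREBP1, which is better known for fatty acid synthesis, stood at -0.035 (95% interval -0.12 to 0.046), and Scap at -0.0046 (95% interval -0.081 to 0.072). The activity of SREBP factors is set by cleavage of the protein, which these data do not measure.

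The 5 genes of trafficking, storage and removal held some of the smallest estimates, with a median log2 fold change of 0.0016, and none stood at an unadjusted p under 0.05. Npc1 had values of 829, 862 and 976 in Tecpr2 ki/ki and of 845, 877.5 and 900 in wt/wt mice. Its mean was 883.8 ± 56.9 in Tecpr2 ki/ki and 873.2 ± 21.9 in wt/wt mice (SD, n = 8 each), so that 3 Tecpr2 ki/ki mice lay above and 2 below every wt/wt mouse. Its log2 fold change was 0.015 (95% interval -0.049 to 0.079). Npc2, its soluble partner in the lysosome, stood at 0.0016 (95% interval -0.085 to 0.089).

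Soat1, which esterifies cholesterol for storage, had means of 693.0 and 692.1 and a log2 fold change of 0.0012 (95% interval -0.063 to 0.066). Cyp46a1 had values of 1010, 1059 and 1122 in Tecpr2 ki/ki and of 1023, 1073.5 and 1099 in wt/wt. The log2 fold change of -0.0037 (95% interval -0.059 to 0.052) corresponds to -4.02% to 3.65% on the linear scale. Stard4, a carrier of sterol between membranes, had the largest estimate of the 5, 0.064 (95% interval -0.016 to 0.14, adjusted p = 0.888).

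A list of 29 other sterol genes held further sterol enzymes, lipoprotein receptors, carriers and oxysterol enzymes. Of these, 26 were tested and none passed an adjusted p of 0.1. At an unadjusted p under 0.05 stood 2 of the 26 (7.69%, beside 6.08% of all genes tested), 1 in each direction. Cyp39a1, which hydroxylates the product of CYP46A1, had values of 16, 22.5 and 33 in Tecpr2 ki/ki and of 22, 33 and 36 in wt/wt. The log2 fold change was -0.44 (95% interval -0.74 to -0.14, adjusted p = 0.513). Nr1h3, the sterol sensor LXR alpha, had values of 36, 42.5 and 51 in Tecpr2 ki/ki and of 27, 32 and 52 in wt/wt mice. It differed by 0.30 on the log2 scale (adjusted p = 0.762). With 1 mouse left out, Nr1h3 was at or over an unadjusted p of 0.05 in 2 settings, without replicate 8 of Tecpr2 ki/ki and without replicate 5 of wt/wt, while Cyp39a1 stayed under it in all 25 alternative settings. Both lie near the low end of measured values, where the log2(value + 1) scale understates differences.

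Of 14 fatty acid genes driven by SREBP1, none passed an adjusted p of 0.1. At an unadjusted p under 0.05 stood 3 (21.4%), beside 6.08% of all genes tested. Thrsp and Acacb, a lipogenic regulator and an acetyl-CoA carboxylase, had log2 fold changes of 0.20 (adjusted p = 0.642) and 0.17 (adjusted p = 0.775), and Pnpla3, a lipase, one of -0.21 (adjusted p = 0.820). With 1 mouse left out, Acacb was at or over an unadjusted p of 0.05 in 3 settings and Pnpla3 in 8, while Thrsp stayed under it in all 25 alternative settings. The mice left out were replicates 3 and 7 of Tecpr2 ki/ki and replicate 4 of wt/wt for Acacb. They were, for Pnpla3, replicates 2, 4, 5 and 8 of Tecpr2 ki/ki and replicates 1, 2, 5 and 7 of wt/wt. An estimate above 0 was found for 7 of the 14, beside 49.5% of all genes tested.

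In bulk tissue, more RNA per cell and more cells of a type cannot be told apart. Summed values of 13 microglia markers were 3441 to 3699 in Tecpr2 ki/ki and 2912 to 3265 in wt/wt mice. Of the 13, 7 passed an adjusted p of 0.1, all higher in Tecpr2 ki/ki, where 0.133% of all genes tested passed. Log2 fold changes of the 13 ran from -0.0058 to 0.49, so not all of these markers were higher. Summed values of 10 astrocyte markers were 59965 to 62309 and 56401 to 59965, and 3 of the 10 passed, all higher. Their log2 fold changes ran from -0.012 to 0.58 over the 10. Sums of 12 oligodendrocyte markers overlapped widely, at 49807 to 55976 and 50111 to 55774, as did those of 10 neuron markers at 68730 to 71728 and 68913 to 73729. No marker was at 0 in all mice. The part of these cell types in the higher means of Fdps, Acat2, Hmgcs1 and Insig2 was not tested.

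Mice differed more in some of the genes than in others. The SD of log2 values within genotype ran from 0.042 for Cyp46a1 to 0.17 for Mvk. Set against the SD that counting reads alone would give at the estimated depth, the ratio was lowest for Soat1 (0.81) and highest for Srebf2 (2.09), followed by Sqle (1.99), Insig1 (1.89) and Srebf1 (1.86). A gene at a ratio of 1 varies as much as counting alone.

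The genes also varied together between mice of the same genotype. Pearson's r was taken between each pair of the 29 over the 16 mice after subtracting each genotype's mean, as a description without a test. The median over 406 pairs was 0.21, beside 0.0080 for all 63174420 pairs among 11241 tested genes with a mean value of at least 100. An r of at least 0.5 was found in 48 pairs (11.8%, beside 3.75% of all pairs), and one of at least 0.7 in 7 pairs (1.72%, beside 0.309%). After scaling the libraries to equal totals, the median over the 406 pairs was 0.14. By median-of-ratios and TMM factors, scalings added after seeing the data, it was 0.20 and 0.21. These factors ran from 1.003 to 1.007 and from 0.997 to 1.002 over the mice, so they could hardly move the median.

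The highest r was that of Hmgcs1 and Sqle, 0.81 (Spearman's rho 0.87), with 0.76 within Tecpr2 ki/ki and 0.86 within wt/wt mice. Without the 2 mice farthest from the mean of their genotype in Hmgcs1 it was 0.82. Insig1 belonged with them, at 0.79 with Sqle (rho 0.65) and 0.75 with Hmgcs1 (rho 0.73), although its r with Sqle was 0.57 without the 2 farthest mice. With any 1 mouse left out, the r of Hmgcs1 and Sqle stayed at 0.79 to 0.83. Replicate 8 of Tecpr2 ki/ki had 462 for Sqle and 666 for Insig1, and replicate 1 of wt/wt had 476 and 662. Each was the lowest of its genotype in both genes, and in 12 and 10 of the 29 genes.

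Insig1 and Insig2 are paralogs with the same role in holding SCAP, but their r was -0.20. Replicate 8 of Tecpr2 ki/ki had the lowest Insig1 and the highest Insig2 of its genotype. Srebf1 and Srebf2 had an r of 0.74 (rho 0.82), which was 0.61 without the 2 farthest mice. Acat2 varied with Npc2 (r = 0.74, rho 0.71), Stard4 (r = 0.73, rho 0.71) and Srebf2 (r = 0.72, rho 0.66), and less with Hmgcs1, the next enzyme of its pathway (r = 0.29). Without the 2 farthest mice these values were 0.66, 0.58 and 0.49.

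**Figure D4:**
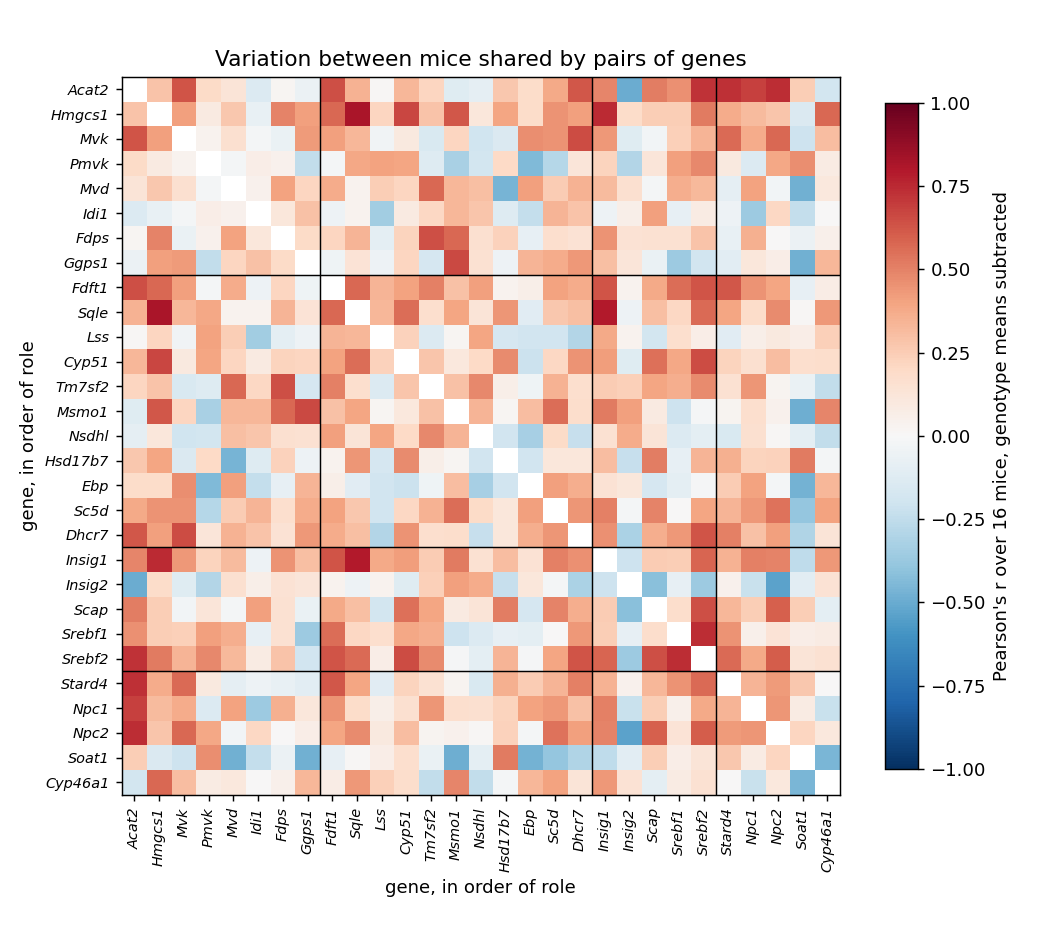
Pearson's r (colour scale from -1 to 1) between each pair of the 29 genes over 16 mice after subtracting genotype means, with genes in order of role and lines between the roles. The darkest fields are Hmgcs1 with Sqle (0.81), Sqle with Insig1 (0.79) and Hmgcs1 with Insig1 (0.75), and Insig2 shows mostly pale or blue fields.

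**Figure D5:**
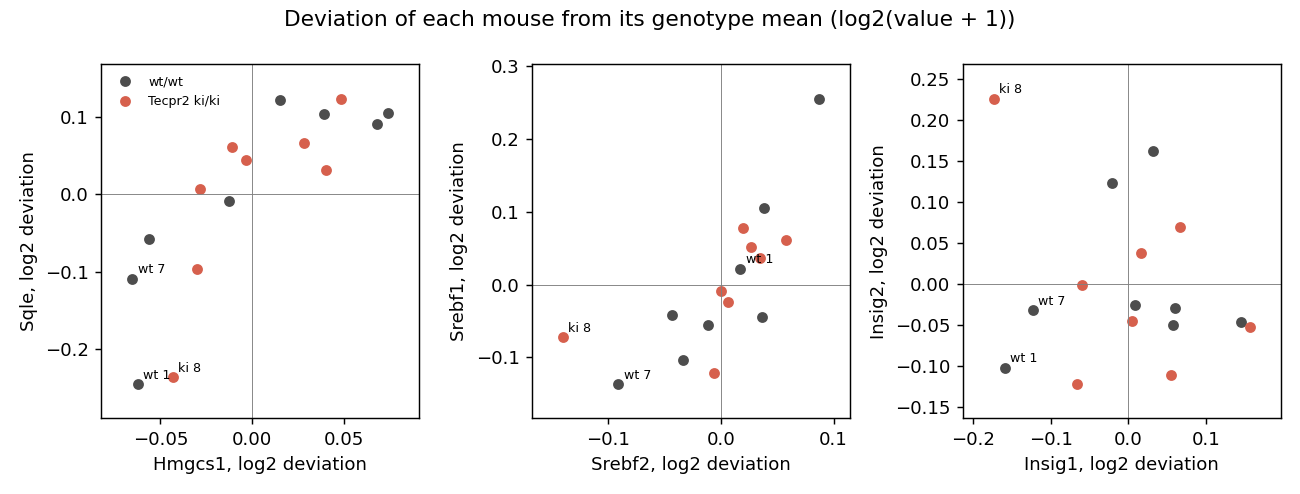
Deviation of each mouse from the mean of its genotype on the log2(value + 1) scale for 3 pairs of genes, wt/wt in grey and Tecpr2 ki/ki in red, with replicate 8 of Tecpr2 ki/ki (ki 8) and replicates 1 and 7 of wt/wt (wt 1, wt 7) named. Hmgcs1 and Sqle lie along a line (r = 0.81), Srebf2 and Srebf1 likewise (0.74), and Insig1 and Insig2 do not (-0.20).

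Within the 29 genes, low and high values gathered in a few mice. Replicate 8 of Tecpr2 ki/ki had the lowest value of its genotype in 12 of the 29 genes, replicate 7 of wt/wt in 11 and replicate 1 of wt/wt in 10. Replicate 4 of wt/wt had the highest in 13 and replicate 3 of Tecpr2 ki/ki in 9. The same counts were not made over all genes tested, so they cannot be called particular to the 29. The total of deposited values was lowest in replicate 8 of Tecpr2 ki/ki (11964284) and, among wt/wt, in replicate 7 (12010067). That of replicate 4 of wt/wt (12224234) was below only replicate 3 of wt/wt (12252324). Replicate 1 of wt/wt (12063332) and replicate 3 of Tecpr2 ki/ki (12130617) were not at an end of their genotype's totals. Replicate 8 of Tecpr2 ki/ki also had the smallest estimated depth, 9.23 megareads, and the lowest sums of its genotype for oligodendrocyte markers (49807), astrocyte markers (59965) and neuron markers (68730). Per mouse, the mean of the log2 values of the 29 genes varied with these sums within genotype, with an r of 0.73 for oligodendrocyte, 0.66 for neuron, 0.65 for microglia and 0.55 for astrocyte markers (rho 0.74, 0.68, 0.69 and 0.55). With the estimated depth the r was 0.26 (rho 0.34). Without the 2 mice farthest in each measure, the 5 values were 0.65, 0.60, 0.59, 0.55 and 0.21. All r with marker sums and depth were taken on the deposited values, not scaled to equal totals.

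Single genes differed in this. Srebf2 and Acat2 followed the oligodendrocyte sum (r = 0.81 and 0.76, rho 0.87 and 0.76) and the neuron sum (r = 0.73 and 0.63), while Hmgcs1, Sqle and Insig1 had an r of 0.31, 0.22 and 0.27 with the oligodendrocyte sum. With the astrocyte sum, the r of these 3 genes was 0.56, 0.54 and 0.56 (rho 0.50, 0.35 and 0.49), and 0.33, 0.34 and 0.50 without the 2 farthest mice. With the microglia sum it was 0.54, 0.43 and 0.48 (rho 0.47, 0.34 and 0.48). Fdps had an r of 0.58 with the microglia sum (rho 0.51), and of 0.27 without the 2 farthest mice. Sqle and Insig1 varied with the estimated depth (r = 0.58 and 0.62, rho 0.62 and 0.72). The part of depth, of the deposited totals and of the share of cell types in the r between genes was not tested. Among 11240 other genes ranked by r with Hmgcs1, a list looked up after its values had been seen, Sqle was number 10 and Insig1 number 40. Slc17a7, which encodes a vesicular glutamate transporter, was number 5 (r = 0.83). Scd2 and Fads1, SREBP1 targets of fatty acid synthesis, were numbers 33 and 35. Of the 15 genes ranked first, Sqle was the only one in the sterol and fatty acid lists used here. For 16 of the 29 genes, none of the other 28 was among the 100 genes closest by r, while 10 had 1 there and 3 had 2, namely Hmgcs1, Sqle and Insig1. The closest of the 28 was number 837 for Insig2, 753 for Idi1, 617 for Lss and 587 for Ebp.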

How the data were processed

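Stranded libraries were made from total RNA of whole brain, 8 of the genotype Tecpr2 ki/ki and 8 wt/wt. The authors trimmed reads with Trim Galore 0.6.10 and cutadapt 3.4, aligned them with STAR 2.7.10b to GRCm39, counted them per gene with summarizeOverlaps (IntersectionNotEmpty) and tested them with DESeq2 1.40.2. The authors deposited a score per gene and mouse, a linear normalized value rounded to whole numbers, whose normalization is not given in the sources used here. Raw counts were not restored, so no count test was run. The 16 files of single mice repeat the table of all mice. Library depth was estimated from the whole numbers that scaling skips or repeats.

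Tested were genes with a sum over 16 and a value over 5 in 4 or more mice of 1 genotype. The test was limma 3.58.1 in R 4.3.3 on log2(value + 1), genotype only, with trend and robust variance and Benjamini-Hochberg adjustment over all genes tested. Single genes were also compared by exact two-sided permutation over 12870 splits. The steps were checked on simulated data. There 36% of 50 genes changed by 0.15 on the log2 scale passed an adjusted p of 0.1, and 100% of 50 changed by 0.3. The largest estimate among the 29 genes, that of Fdps, was 0.15. The changed genes were drawn from those with higher values, while some of the 29, such as Mvk and Mvd, have lower ones. Changes of 0.15, 0.3, 0.6 and 1 were planted together, 50 genes each. With that many changed genes, the adjusted p is easier to pass than with few. Every gene was given the same added spread between mice. The 36% is thus not a rate of recovery for the 29 genes in these data. Of 22642 unchanged genes, 16 passed. All 29 genes are named, with Tecpr2 and, of the related lists, the genes at an unadjusted p under 0.05. The 29 genes and the other lists were chosen with earlier results of these data known, so no p was adjusted over them alone. Symbols, exons and transcripts came from GENCODE on GRCm38, an earlier build than that of the reads, and promoters from RefSeq. Of the listed genes, Faxdc2 had no identifier matched and Ch25h and Soat2 were too low to test. Some genes of the table are not reported here by name. Alternatives were other pseudocounts, no filter, 3 other scalings, other variance settings, a replicate block and leaving out each mouse. Python 3.11.15, numpy 2.4.6, pandas 2.3.3, scipy 1.17.1 and matplotlib 3.10.9 were used.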

Additional observations from a re-analysis of the deposited data

Results flagged for a closer look

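In 60 groups of 8 mice (29 sterol genes and Tecpr2 in each genotype), 4 held a mouse whose gap to the next was over 0.526 of the group's range, where chance flags about 1 in 20 groups. Replicate 8 of Tecpr2 ki/ki was lowest for Scap, with 620 beside 691 in the next mouse, and for Srebf2, with 2446 beside 2684. This mouse had the smallest estimated depth (9.23 megareads). Replicate 4 of Tecpr2 ki/ki was highest for Soat1, with 753 beside 702. Replicate 3 of wt/wt was highest for Npc2, with 454 beside 425.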

How the results depend on the processing

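None of the 29 sterol genes passed an adjusted p of 0.1 (limma) in any of 25 alternative settings. At an unadjusted p under 0.05 stood 4, and 3 without the filter on low values or without robust variance (Insig2 lost) and 2 without the variance trend (Hmgcs1 and Insig2 lost). Leaving out 1 mouse gave 2 to 4 such genes, with 2 without replicate 5 of Tecpr2 ki/ki and without replicate 1, 2 or 7 of wt/wt. Among all genes, 31 passed an adjusted p of 0.1, 20 without the filter on low values, 15 without the variance trend and 25 to 40 with 1 mouse left out, while 2231 without the filter stood at an unadjusted p under 0.05 beside 1413 with it. The cause was not tested.

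Same-numbered mice had an r of -0.005 to 0.064 over 8 pairs, beside -0.05 to 0.038 between mice of different numbers. The pairs numbered 3 and 4 (0.064 and 0.041) lay above that range, and in these 2 each mouse was closest to its own number. All r were small and the labels give no pairing, so the numbers were not taken as pairs, though a pairing is not excluded. With a replicate block, 46 genes passed the adjusted p, beside 31 without it. None of the 46 was among the 29, and 4 of the 29 stood at an unadjusted p under 0.05.

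The median log2 fold change of the 29 was 0.018, and 0.0079 to 0.035 with 1 mouse left out. The median r over pairs was 0.21, 0.14 at equal totals and 0.18 to 0.24 with 1 mouse left out. By median-of-ratios and TMM factors (added after seeing the data, and so near 1 that they could hardly move it) it was 0.20 and 0.21. With 1 mouse left out, the r of Hmgcs1 and Sqle was 0.79 to 0.83. Estimates near 0 changed sign for some left-out mice. The log2 fold changes ran from -0.0018 to 0.032 for Lss, -0.0087 to 0.049 for Nsdhl, -0.068 to 0.013 for Ebp, -0.031 to 0.019 for Scap, -0.055 to 0.0010 for Srebf1, -0.0017 to 0.031 for Srebf2, -0.0057 to 0.028 for Npc1, -0.014 to 0.035 for Npc2, -0.016 to 0.0087 for Soat1 and -0.015 to 0.0070 for Cyp46a1. At equal totals Cyp46a1 stood at 0.00020. In the 250 bases before the start alone, the counts of the 24 genes with a promoter that hold each motif were the same, 1 of the 4 CCAAT of Hmgcs1 being left out, while the shares of all genes were 37.5% for CCAAT, 6.86% for CACGTG, 6.05% for CACNCCAC and 2.98% for CACCCCAC. At this depth the intervals of Mvd, Mvk, Ebp and Tm7sf2, the genes with low values, were the widest.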
